A study of Mus musculus with 18 samples.

Results

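G protein-coupled receptors (GPCRs) were represented by 31 genes that carry a Gpr symbol in the study's list of signalling components. All 31 were among the 12064 genes measured in the mesoderm, and 25 of them were among the 11231 genes measured in the neural tube (NT) and forelimb (FL). *Gpr98*, *Gpr37*, *Gpr20*, *Gpr183*, *Gpr50* and *Gpr182* were not listed for NT and FL and have mesoderm values only. Every embryo was a mouse embryo at E11.5, and each tissue gave 3 replicates of RNA-Seq and 3 of Ribo-Seq, 18 libraries in all. Mesoderm cells were GFP+ cells sorted from embryos heterozygous for the *R26-mTmG* flox reporter that also carried the *Tg(T-cre)1LWD/J* transgene, whose Cre switches on GFP in the lineage that leaves the primitive streak, and each sort was divided between both library types. NT and FL were dissected from the same wild-type FVB embryos. For some experiments neural tubes were frozen, and otherwise they were dissociated and divided between both library types. Which of these applied to each sequenced NT replicate is not stated. All tissues were handled in cycloheximide, which holds ribosomes on the mRNA. RNA-Seq reads measured mRNA level and Ribo-Seq reads measured ribosome-protected fragments (RPFs), both over the coding sequence. Translational efficiency (TE) is log2 of RPFs minus log2 of mRNA, here always relative to the median gene of the same tissue, and a gene was called TE-low or TE-high at 3-fold or more from that median with a limma adjusted p under 0.05.

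GPCRs cross the membrane in a bundle of helices and, on binding a ligand, exchange nucleotide on a heterotrimeric G protein. The released subunits act on adenylyl cyclases, which make cAMP for protein kinase A, or on phospholipase C, whose products raise calcium and switch on protein kinase C. Most genes with a Gpr symbol were named as orphans, before a ligand was known. They fall here into 16 rhodopsin-like receptors, 7 adhesion receptors, which carry a long extracellular part that cleaves itself, and 8 further membrane proteins that share the symbol but are not all classical receptors. In the embryo, *Gpr161* sits in the primary cilium and restrains Sonic hedgehog signalling through cAMP, *Gpr124* works with Wnt7 ligands in brain angiogenesis, and *Gpr56* is found on neural progenitors.

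Ribosomes choose a start codon partly by the bases around it, so windows around annotated start codons are shown for some receptors. They lie on both sides of the median TE and are not all the most extreme. Each runs 5′ to 3′ from 12 bases before the start codon to 6 bases after it, on the sense strand of GRCm38 with GENCODE M21 transcripts. Capitals mark the start codon, the base that follows it and the base in the third place before it. The first 5 belong to genes of low TE in the mesoderm and the last 3 to genes above the median.
Gpr21: cctgagcacGagATGAactcc
Gpr153: ccagtctgcAccATGAgtgat
Gpr4: ccatcgcccAggATGGacaac
Gpr63: cctcctaaaAacATGGttgtc
Gpr19: caaaggggaGatATGAatgtg
Gpr182: aagttggccCtcATGTcagtc
Gpr50: tgcctgggaGgaATGGccacg
Gpr56: ggtaggagtAtaATGGctgtc
The start motif searched, ANNATGG or GNNATGG on the sense strand, was present in 14 of the 31 receptors (45.2%), against 38.8% of 21503 coding genes. It was present in 6 of the 11 TE-low receptors of the mesoderm and 8 of the other 20. Of the windows shown, those of *Gpr4*, *Gpr63*, *Gpr50* and *Gpr56* held it, and those of *Gpr21*, *Gpr153*, *Gpr19* and *Gpr182* did not. In the annotated 5′ leader, an ATG upstream of the start occurred in 20 of 31 receptors (64.5%), against 50.6% of all coding genes. Of the 11 TE-low receptors of the mesoderm, 10 had such an upstream ATG and the median leader was 354 nt. Of the other 20 receptors, 10 had one and the median leader was 137.5 nt. *Gpr85* and *Gpr37* had the most upstream ATGs, 22 and 21, and neither was TE-low. These are descriptions of the annotation, without a test. There were 2 receptors, *Gpr27* and *Gpr137c*, without an annotated leader, both among the other 20. They were counted as lacking the motif and an upstream ATG, though neither could be assessed. Coding genes without a leader were counted in the same way.

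Read totals over all genes ran from 24555103 to 50136443 for RNA-Seq and from 11000015 to 31993255 for Ribo-Seq. Marker genes followed the labels. *Hoxd13*, a distal limb gene, had 8545 ± 1638 normalized reads in FL RNA-Seq and 133.0 ± 70.7 in NT (SD, n = 3), and *Dcx*, a gene of young neurons, had 5808 ± 2774 in NT and between 301.0 and 345.3 in FL. In mesoderm RNA-Seq, *Pdgfra*, a mesenchymal receptor, had 10305 ± 487 normalized reads and *Epcam*, an epithelial marker, 122 ± 12.3, while *Nes*, a marker of neural progenitors and some other dividing cells, was present at 7505 ± 1203. FL Ribo-Seq replicate 3 stood furthest apart. It correlated with the other FL Ribo-Seq replicates at 0.886 and 0.896 (Pearson r across genes, log2 scale), while those 2 correlated at 0.976. It also lay closer to FL RNA-Seq (r of 0.91 with the mean of FL RNA-Seq) than replicates 1 and 2 did (0.732 and 0.74). NT Ribo-Seq replicate 3 also stood apart, at 0.933 and 0.934 with the other NT Ribo-Seq replicates, which correlated at 0.989, and it lay further from the mean of NT RNA-Seq (0.855) than they did (0.92 and 0.922). Mesoderm RNA-Seq replicate 1 correlated with the others at 0.939 and 0.953 and those with each other at 0.987. Mesoderm Ribo-Seq replicate 2 lay further from the mean of mesoderm RNA-Seq (0.812) than replicates 1 and 3 (0.882 and 0.881). In it the erythroid gene *Hba-x* had 84280 normalized reads, against 9340 and 18362 in replicates 1 and 3. The macrophage markers *Csf1r* and *Fcer1g* summed to 5379 there, against 1402 and 2041. NT RNA-Seq replicate 1 correlated with the others at 0.946 and 0.949 and those with each other at 0.97. Its neural markers summed to 17524 normalized reads, against 28457 and 29899 in replicates 2 and 3. *Epcam* had 659 against 96.0 and 106.7, and the somite marker *Tcf15* 435.8 against 125.1 and 53.0. Limb marker sums were alike, from 2928 to 3193, but the single limb markers were not. *Msx1* had 1161 against 668.3 and 633.4, whereas *Pdgfra* had 438.4 against 773.7 and 773. *Hoxd13* had 54.6 against 152.5 and 191.9, and *Lhx2* had 1286 against 1333 and 1594. The cause was not tested. Counts of receptors in NT and FL are given with and without replicate 3 of the tissue concerned. For the NT TE-low calls, the effect of leaving out NT replicate 1 or NT replicate 2 is given too. In bulk tissue, fewer cells of a type and less RNA per cell cannot be told apart.

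In the mesoderm, 11 of the 31 receptors were TE-low (35.5%) and 1 was TE-high, with a median log2 TE of -0.74. Over all genes, 10.9% were TE-low and 1.17% TE-high. The study picked out these signalling components in the same mesoderm samples, so this count is not independent evidence of low TE. The rhodopsin-like receptors held most of the calls, with 8 TE-low genes of 16 and a median log2 TE of -1.54. Of the 7 adhesion receptors 2 were TE-low (median -0.52), and of the 8 other membrane proteins 1 was (median -0.46).

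The lowest TE belonged to *Gpr21*, an orphan receptor encoded on chromosome 2 (37516332 to 37520603, plus strand, GRCm38) within the span of *Rabgap1* on the same strand. Its mRNA gave 73.4, 27.2 and 48.4 normalized reads in replicates 1, 2 and 3, whereas the Ribo-Seq libraries held 1, 0 and 2 reads. The RNA and RPF ranges did not overlap, but RPFs were at the limit of detection in every replicate. From the 3 RPF reads in all, the ratio of RPFs to mRNA was 25.6-fold below that of the median gene, with an exact Poisson 95% interval of 8.77 to 124.2 that covers counting error only. The part of *Rabgap1* reads in the mRNA value was not tested.

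Among the other orphans, *Gpr153* combined an abundant mRNA with few RPFs. Its RNA-Seq libraries held 518, 1416 and 1437 normalized reads and its Ribo-Seq libraries 70.0, 118.2 and 252.9. Every replicate had less RPF than mRNA, and log2 TE was -3.02 ± 0.22 (SE, n = 3, limma adjusted p = 2.96e-06). *Gpr162*, its closest relative in the list, had 162.4, 291.9 and 325.1 normalized reads of mRNA and 40.2, 97.5 and 81.3 of RPFs, a log2 TE of -1.88 ± 0.22. Replicate 1 was the lowest of the 3 for both genes and in both library types.

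*Gpr135* and *Gpr63*, also orphans, were scarce in RPFs. For *Gpr135*, 39.5, 34.4 and 85.7 normalized reads in RNA-Seq stood against 2, 5 and 4 reads counted in Ribo-Seq, and log2 TE was -2.73 ± 0.47. For *Gpr63*, 197.8, 132.8 and 176.5 normalized reads of mRNA stood against 55.1, 16.6 and 40.7 of RPFs, and log2 TE was -2.32 ± 0.28. In neither gene did the RNA and RPF values overlap. *Gpr19*, an orphan receptor best known from neurons, was the TE-low receptor closest to the threshold, at -1.65 ± 0.22, with 195.8, 251.8 and 218.5 normalized reads of mRNA and 55.1, 76.8 and 85.8 of RPFs.

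*Gpr4*, a proton-sensing receptor of endothelial cells, was TE-low at -2.43 ± 0.27. Its mRNA gave 225.7, 322.5 and 305.3 normalized reads and its RPFs 25.3, 97.5 and 58.7. *Gpr182*, an atypical chemokine receptor that also marks endothelium, was the TE-high gene at 1.65 ± 0.24, with 36.4, 78.8 and 98.5 normalized reads of mRNA and 86.4, 286.3 and 395.2 of RPFs. These receptors of one cell type thus lay on opposite sides of the median, and in both genes replicate 1 was the lowest in both library types. The summed mRNA of the 7 endothelial markers measured was likewise lowest in replicate 1, at 2043 normalized reads against 4907 and 4177 in replicates 2 and 3, and none was at 0 in all 3. Its part in the *Gpr182* and *Gpr4* values was not tested. Without replicate 2 or replicate 3, *Gpr182* fell under the 3-fold threshold, with log2 TE of 1.56 and 1.505.

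*Gpr27*, *Gpr85* and *Gpr173* form the SREB family, a closely related set of brain receptors. *Gpr173* was TE-low, with 234.8, 273.8 and 428.2 normalized reads of mRNA, 50.7, 78.8 and 85.8 of RPFs and a log2 TE of -2.13 ± 0.22. *Gpr27* was at -1.43 ± 0.18 and *Gpr85* at -0.92 ± 0.27, both under the 3-fold threshold. *Gpr27* mRNA varied from 221.6 to 916.5 normalized reads between replicates, while its log2 TE ranged from -1.51 to -1.34.

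The hedgehog regulator *Gpr161* had a log2 TE of -1.40 ± 0.21, with 753.9, 1061 and 1092 normalized reads of mRNA and 387.3, 280.0 and 467.5 of RPFs. The remaining rhodopsin-like receptors lay near or above the median. *Gpr37*, known from oligodendrocytes and as a receptor for prosaposin, was at -0.17 ± 0.27. *Gpr20* was at 0.70 ± 0.27, *Gpr183*, the oxysterol receptor of immune cells, at 1.00 ± 0.26, and *Gpr50*, a relative of the melatonin receptors, at 1.10 ± 0.23. For *Gpr50*, all Ribo-Seq values (183.2, 284.2 and 248.4 normalized reads) exceeded all RNA-Seq values (109.8, 139.5 and 78.1).

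The adhesion receptors held both the most abundant mRNAs of the family and TE on either side of the median. *Gpr124*, the Wnt7 coreceptor, had 8389, 13413 and 12257 normalized reads of mRNA and 2833, 2608 and 3898 of RPFs, a log2 TE of -1.90 ± 0.20. Its relative *Gpr125* had 9615, 9978 and 9366 of mRNA and 3512, 2099 and 2988 of RPFs, a log2 TE of -1.82 ± 0.20. Both were TE-low in spite of between 1012 and 2358 RPF reads counted in each library. *Gpr98*, the very large receptor affected in Usher syndrome, was at -1.38 ± 0.19, and *Gpr97*, a receptor of granulocytes, at -0.52 ± 0.24. *Gpr126*, needed for Schwann cell myelination, was at 0.32 ± 0.21, *Gpr116*, a receptor of endothelium and lung, at 0.57 ± 0.20, and *Gpr56* at 0.57 ± 0.17.

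Among the 8 other membrane proteins, *Gpr137*, a lysosomal protein, was TE-low at -1.69 ± 0.18, with 649.1, 984.2 and 1071 normalized reads of mRNA and 172.8, 346.4 and 363.6 of RPFs. Without replicate 1 both *Gpr137* (-1.55) and *Gpr19* (-1.54) fell just short of 3-fold, which is 1.58 on the log2 scale. Its relative *Gpr137c* was at -0.64 ± 0.25 and *Gpr155*, another lysosomal protein, at 0.13 ± 0.27. The Golgi proteins *Gpr89*, *Gpr107* and *Gpr108* were at -0.74 ± 0.19, 0.34 ± 0.17 and -0.28 ± 0.18, while *Gpr157* was at -0.73 ± 0.31 and *Gpr180* at -0.08 ± 0.17.

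Low TE changed the order of the receptors between mRNA and RPFs. Levels per kilobase (kb) used the longest GENCODE M21 coding sequence of each gene, less its first 15 and last 5 codons. That length may differ from the UCSC transcript over which reads were counted. On this scale, mRNA levels were highest for *Gpr124*, at 2873 ± 666 normalized reads per kb, and *Gpr125*, at 2492 ± 79.4 (SD, n = 3). These neighbours differed by less than the spread of *Gpr124*. *Gpr107* (888 ± 81.3), *Gpr180* (874 ± 190), *Gpr56* (824 ± 325) and *Gpr137* (797 ± 197) followed, and any pair of these differed by less than the larger of its SDs. The lowest mRNA levels were those of *Gpr37* (36.2 ± 6.01), *Gpr155* (39.3 ± 7.58), *Gpr98* (39.4 ± 2.94) and *Gpr135* (40.5 ± 21.5), which differed from *Gpr37* by less than its SD. In RPFs per kb, *Gpr56* came first at 1286 ± 585, with *Gpr107* at 1156 ± 152 and *Gpr180* at 858 ± 250, and *Gpr124* and *Gpr125* came after them at 788 ± 174 and 740 ± 184. The SD of *Gpr56* spanned the other 4 means, and *Gpr180*, *Gpr124* and *Gpr125* lay within each other's spread. *Gpr107* was above *Gpr180* by more than the SD of either. *Gpr21*, at 2.02 ± 2.33, and *Gpr135*, at 5.68 ± 3.00, had the lowest RPF levels.

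**Figure D1:**
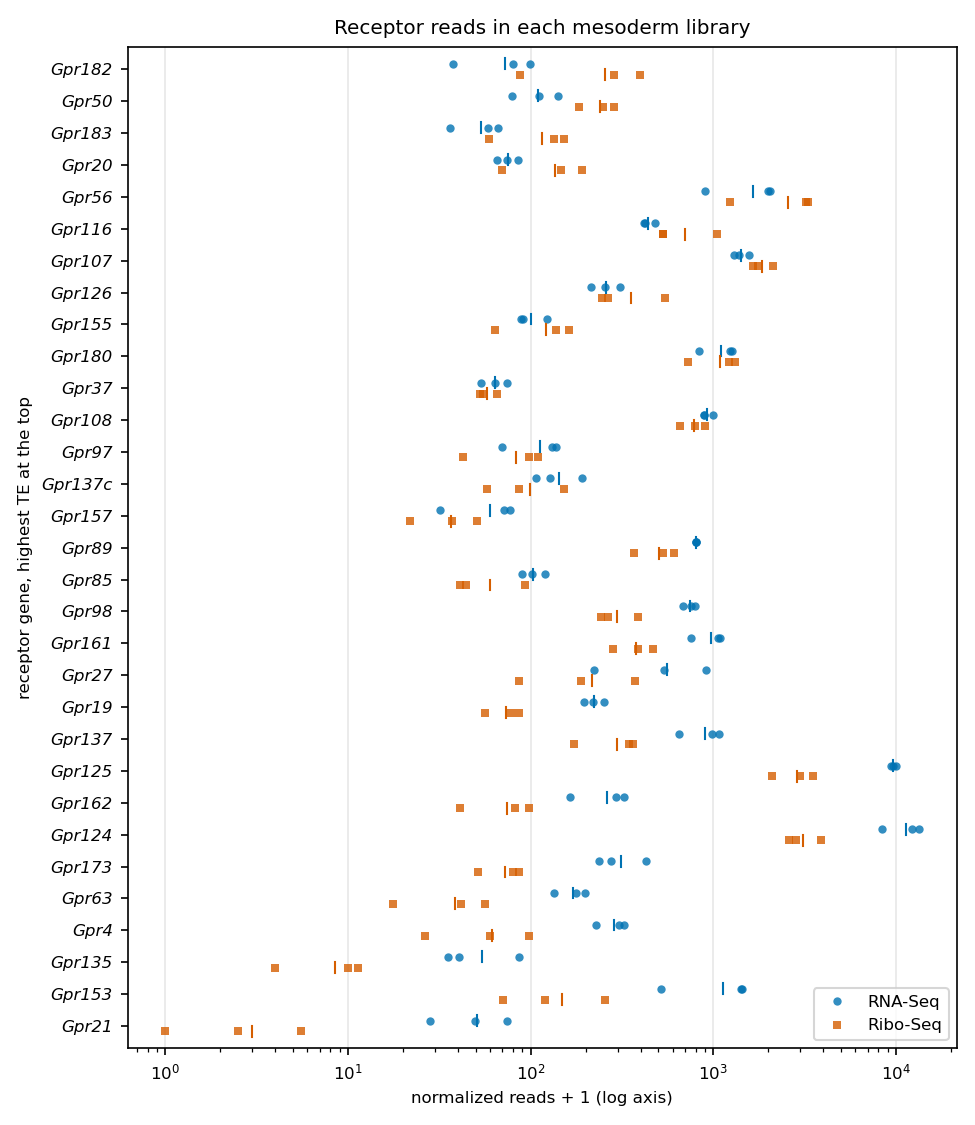
Normalized reads plus 1 (log axis) of the 31 receptors in the 3 RNA-Seq libraries (circles) and 3 Ribo-Seq libraries (squares) of the mesoderm, ordered from the highest TE at the top to the lowest at the bottom, with short lines at the mean. Squares lie right of circles at the top (*Gpr182*, *Gpr50*) and far left of them at the bottom (*Gpr153*, *Gpr21*), while *Gpr124* and *Gpr125* have the most mRNA.

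In FL, 10 of the 25 receptors measured were TE-low (40%) and 0 were TE-high, with a median log2 TE of -0.96. Over all genes 13.4% were TE-low and 6.25% TE-high. In NT, 5 of the 25 were TE-low (20%) and 0 were TE-high, with a median of -0.81, against 4.13% and 0.436% of all genes. At an unadjusted limma p under 0.05, 1 receptor, *Gpr56*, lay above the median in each tissue, and edgeR and DESeq2 on the recovered reads also called 0 receptors TE-high in either. The 10 TE-low receptors of FL were 10 of the 11 called in the mesoderm, the exception being *Gpr137* (-1.39 ± 0.29 in FL). *Gpr135*, *Gpr4*, *Gpr63* and *Gpr19* were TE-low in all 3 tissues (16% of the 25, against 2.77% of the 11054 genes in both tables), and 14 of the 25 were TE-low in none. The calls of these 4 in NT or FL were not stable to leaving out a replicate.

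The calls in FL ran from *Gpr21*, at -4.15 ± 0.71, through *Gpr135* (-3.54 ± 0.64), *Gpr63* (-2.72 ± 0.59), *Gpr153* (-2.44 ± 0.41), *Gpr173* (-2.43 ± 0.35), *Gpr124* (-1.99 ± 0.27), *Gpr125* (-1.95 ± 0.22), *Gpr4* (-1.94 ± 0.56) and *Gpr19* (-1.72 ± 0.30) to *Gpr162*, at -1.71 ± 0.34 (SE, n = 3). These SEs, like those in NT, came from 1 fit shared by the 12 NT and FL libraries, so they hold the spread of both tissues. The Golgi proteins *Gpr107* (0.14 ± 0.21) and *Gpr108* (-0.15 ± 0.21) and the TGF-β signalling component *Gpr180* (-0.19 ± 0.25) stayed close to the median. *Gpr4* lost its call without FL replicate 1 or FL replicate 2 (limma adjusted p of 0.092 and 0.0554), *Gpr19* without FL replicate 1 (-1.51), and *Gpr162* without FL replicate 3 (-1.51). The count without FL replicate 3 was again 10, with *Gpr161* in place of *Gpr162*, against 18.1% of all genes TE-low and 12.4% TE-high.

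In NT the order was different at the top. *Gpr4* was lowest at -3.13 ± 0.56, followed by *Gpr135* (-1.94 ± 0.64), *Gpr63* (-1.81 ± 0.59), *Gpr137* (-1.65 ± 0.29) and *Gpr19* (-1.60 ± 0.30). *Gpr162* lay just outside the threshold, at -1.58 ± 0.34. *Gpr21* was at -1.22 ± 0.71 and *Gpr153* at -1.27 ± 0.41, both within 3-fold of the median. *Gpr4* kept its NT call under every alternative run. The NT call of *Gpr135* was lost without NT replicate 1, 2 or 3 (limma adjusted p of 0.156, 0.15 and 0.165). Its log2 TE in NT Ribo-Seq replicates 1, 2 and 3 was nevertheless close, at -2.09, -1.879 and -1.885 against mean NT mRNA. In FL it was -4.689, -4.367 and -1.626, and the shared fit carries this spread into the NT test. The NT call of *Gpr63* was likewise lost (0.0561, 0.156 and 0.1, with log2 TE of -1.47 without replicate 3). It was also lost with edgeR (-1.57, adjusted p = 0.0536). *Gpr19* fell under 3-fold without NT replicate 2 (-1.47), with edgeR or DESeq2 (both -1.58) and with a pseudocount of 8 (-1.57), and *Gpr137* without NT replicate 1 (-1.34). Of the 5 NT calls, 2 were kept without NT replicate 1, 2 without NT replicate 2 and 3 without NT replicate 3, and *Gpr162* gained a call in the last 2 cases. Without NT replicate 3 the count was thus 4, against 2.95% of all genes TE-low and 0.258% TE-high. *Gpr4* counts were small here, with 29, 5 and 7 RPF reads.

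**Figure D2:**
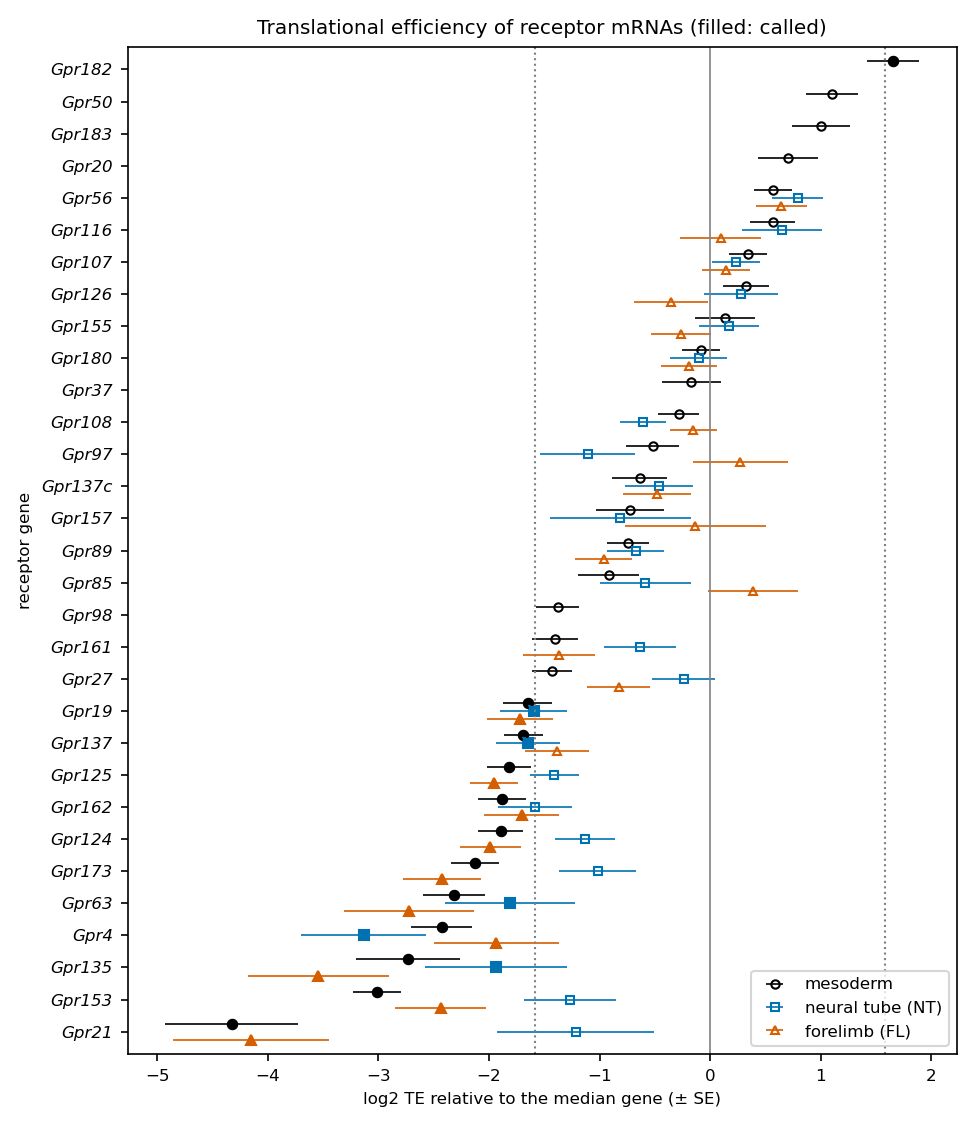
Log2 TE relative to the median gene (± SE, n = 3) of each receptor in the mesoderm (black circles), NT (blue squares) and FL (orange triangles), with filled symbols for called genes and dotted lines at 3-fold. The 4 receptors with 3 filled symbols are *Gpr135*, *Gpr4*, *Gpr63* and *Gpr19*, and *Gpr56* lies right of the median in every tissue.

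The mRNA of 7 of the 25 receptors differed between FL and NT at 2-fold or more (limma adjusted p under 0.05), 4 lower and 3 higher in FL. Over all genes, 9.49% were lower and 7.82% higher in FL. Without FL replicate 3, 6 were lower and 3 higher, against 9.69% and 7.97% of all genes, and without NT replicate 3, 4 and 3, against 8.73% and 6.97%. RNA-Seq values of FL and NT did not overlap for 16 of the 25 receptors (64%), against 47.3% of all genes. The largest difference was that of *Gpr56*, the receptor of neural progenitors. Its mRNA gave 17253, 12946 and 15734 normalized reads in NT and 458.6, 401.6 and 387.3 in FL, 36.8-fold more in NT.

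*Gpr85* mRNA gave 389.8, 590.3 and 511.3 normalized reads in NT and 57.8, 24.8 and 55.6 in FL, 10.8-fold more in NT. *Gpr19* mRNA gave 816.3, 838.8 and 1049 in NT and 95.6, 91.8 and 109.4 in FL, a difference of 9.11-fold. *Gpr162* mRNA gave 1644, 1295 and 1953 in NT and 220.5, 215.6 and 184.1 in FL, 7.89-fold more in NT. For all 4, every NT library was above every FL library, and all are receptors described in neural tissue.

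On the FL side, *Gpr124* mRNA gave 6959, 6891 and 5968 normalized reads in FL and 970.2, 920.2 and 895.8 in NT, 7.11-fold more in FL (log2 2.83 ± 0.27, limma adjusted p = 3.85e-06). *Gpr4* mRNA gave 454.8, 365.6 and 365.6 in FL and 180.6, 41.1 and 102.0 in NT, 3.66-fold more in FL, though its call was lost without FL replicate 1 or FL replicate 2 (limma adjusted p of 0.076 and 0.0601). *Gpr180* mRNA was 2.04-fold higher in FL, at 1303, 1372 and 1372 normalized reads against 591.7, 596.3 and 795.8, and fell just under 2-fold without NT replicate 1 or NT replicate 2. No FL library of these 3 genes overlapped an NT library. The summed mRNA of the 8 endothelial markers ranged from 5678 to 6110 normalized reads in NT and from 4299 to 5868 in FL, and its part in the *Gpr4* difference was not tested.

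RPFs differed for 12 of the 25 receptors, 9 lower and 3 higher in FL, against 17.8% and 14.9% of all genes. Without FL replicate 3 10 were lower and 4 higher, against 24.2% and 21.2%, and without NT replicate 3 also 10 and 4, against 20% and 17.7%. Libraries of FL and NT did not overlap in RPFs for 17 receptors (68%), against 42.6% of all genes. Of the 12, 6 were also called in mRNA with the same sign: *Gpr56*, *Gpr85*, *Gpr19* and *Gpr162* toward NT, and *Gpr124* and *Gpr4* toward FL. *Gpr56* RPFs gave 22345, 22251 and 38871 normalized reads in NT and 710.3, 584 and 659.9 in FL, 42.7-fold more in NT. RPFs of *Gpr4* gave 20.96, 4.07 and 10.2 in NT and 91.4, 117.2 and 100.0 in FL, 8.77-fold more in FL.

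The other 6, *Gpr21*, *Gpr135*, *Gpr153*, *Gpr173*, *Gpr161* and *Gpr97*, passed in RPFs and not in mRNA, which is 50% of the 12, against 56.9% of the 3678 genes called in RPFs. *Gpr21* RPFs gave 110.6, 46.4 and 60.9 normalized reads in NT, from 153, 57 and 42 reads, and 0, 6.39 and 7.47 in FL, from 0, 3 and 5 reads. Its mRNA gave 195.2, 115.7 and 167.8 in NT and 58.6, 67.9 and 84.2 in FL. Neither pair of groups overlapped, and the log2 difference was -4.12 ± 0.71 in RPFs (limma adjusted p = 0.000484) and -1.16 ± 0.71 in mRNA (adjusted p = 0.306). RPFs of this receptor were measurable in NT and near the floor in FL, as they were in the mesoderm.

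*Gpr153* RPFs gave 514.7, 448.9 and 424.7 normalized reads in NT and 59.3, 72.5 and 259.8 in FL, with mRNA of 1049, 1095 and 1127 in NT and 568.1, 510.9 and 624.4 in FL. *Gpr135* RPFs gave 40.5, 47.2 and 47.8 in NT and 3.21, 4.26 and 34.3 in FL. *Gpr173* RPFs gave 219.7, 328.5 and 350.8 in NT and 49.7, 53.3 and 116.5 in FL. In all 3 genes the NT and FL values were apart, and FL replicate 3 was the FL library nearest to NT. The hedgehog regulator *Gpr161* followed the same pattern, with RPFs of 873.9, 871.7 and 759.6 in NT and 197.2, 272.8 and 606.2 in FL and a log2 difference of -1.38 ± 0.32. The *Gpr135* call was lost without NT replicate 2, FL replicate 1 or FL replicate 2 (limma adjusted p from 0.0506 to 0.0723).

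*Gpr97*, the granulocyte adhesion receptor, went the other way. Its RPFs gave 39.0, 36.6 and 31.9 normalized reads in NT and 110.6, 93.8 and 68.7 in FL, 2.54-fold more in FL, whereas its mRNA overlapped, at 75.5, 85.4 and 61.7 in FL against 72.6, 43.7 and 140.2 in NT. The RPF call was lost without NT replicate 1, FL replicate 1 or FL replicate 2 (limma adjusted p of 0.0658, 0.125 and 0.108). The macrophage markers *Csf1r* and *Fcer1g* summed to between 1056 and 2020 normalized reads in FL Ribo-Seq and between 773.4 and 1335 in NT Ribo-Seq, and their part in the *Gpr97* value was not tested.

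**Figure D3:**
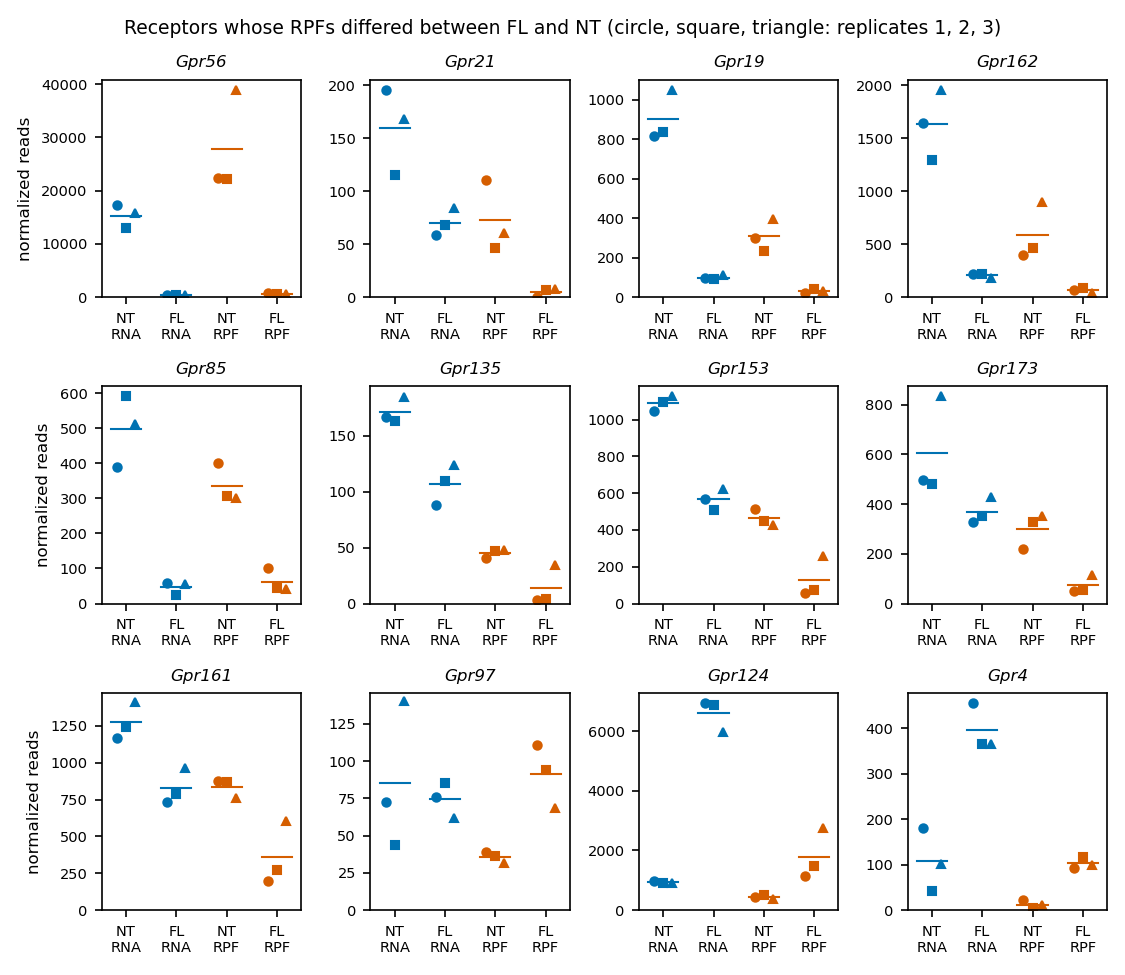
Normalized reads of the 12 receptors whose RPFs were called between FL and NT, one panel a gene, with RNA-Seq in blue, Ribo-Seq in orange, 1 symbol per library (circle, square and triangle for replicates 1, 2 and 3) and lines at the means. The axes are linear. In *Gpr21*, *Gpr135*, *Gpr153*, *Gpr173* and *Gpr161* the ratio of the NT mean to the FL mean is larger in RPFs than in mRNA. The triangle of FL Ribo-Seq stands above the circle and square in all of these.

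**Figure D4:**
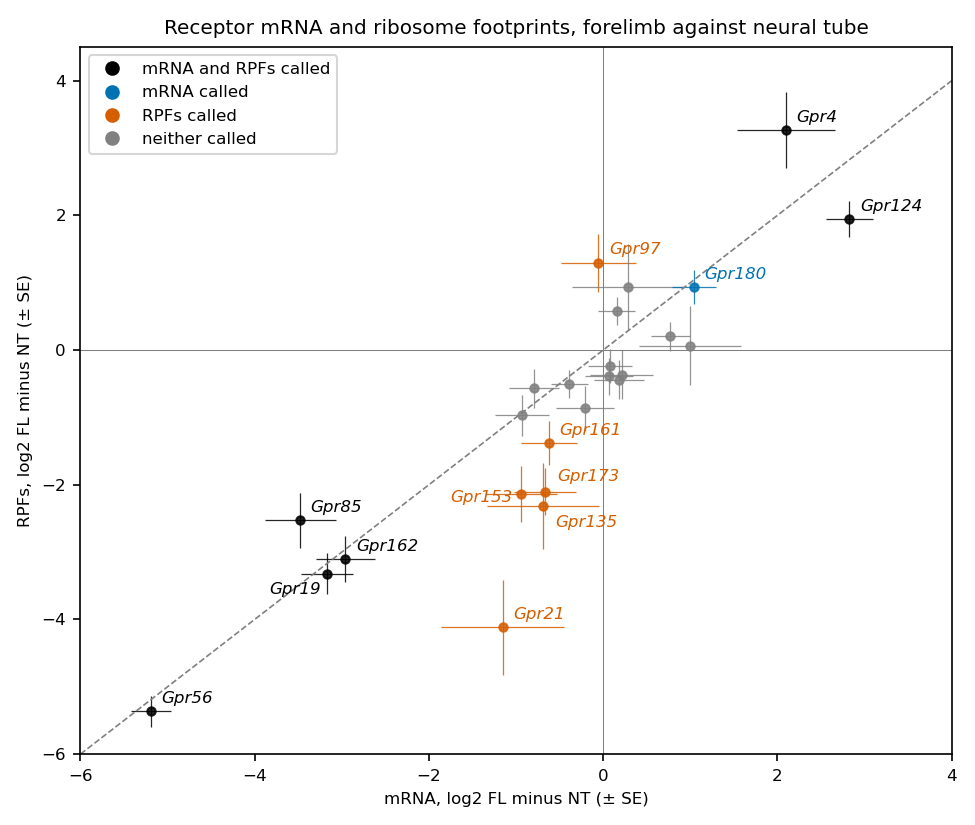
Log2 difference FL minus NT in mRNA (x axis) and RPFs (y axis) of the 25 receptors, each with its SE, with the dashed line where both are equal. *Gpr56*, *Gpr19* and *Gpr162* lie within their SE of the line, 5 receptors called in RPFs alone lie below it, and *Gpr97* lies above it.

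The difference in TE itself between FL and NT, called at 2-fold or more with a limma adjusted p under 0.2, passed for 0 of the 25 receptors in either direction, against 0.276% lower and 0.107% higher in FL over all genes. At these thresholds the study's own DESeq model called a far larger share of genes in each direction. A count of 0 in the limma model is therefore not a sign that TE was equal. At an unadjusted p under 0.05, 4 receptors stood out, *Gpr21* (-2.97 ± 1.00), *Gpr173* (-1.44 ± 0.50) and *Gpr124* (-0.89 ± 0.39) lower in FL and *Gpr97* (1.35 ± 0.61) higher. Each had a limma adjusted p of 0.291. For edgeR on the recovered reads the count was also 0, and for DESeq2 it was 2, *Gpr21* (-2.85, adjusted p = 0.0516) and *Gpr173* (-1.34, adjusted p = 0.18), both lower in FL, against 2.55% of all genes lower and 3.96% higher. The receptors with parallel mRNA and RPF differences had small TE differences, at -0.18 ± 0.33 for *Gpr56*, -0.16 ± 0.43 for *Gpr19* and -0.16 ± 0.48 for *Gpr162*.

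This count depended on FL replicate 3. Without its RNA-Seq and Ribo-Seq libraries, 7 of the 25 receptors had lower TE in FL (28%) and 2 had higher TE (8%), against 19.7% and 15.5% of all genes. Those lower were *Gpr21* (-3.39), *Gpr135* (-2.51), *Gpr153* (-1.80), *Gpr173* (-1.73), *Gpr124* (-1.34), *Gpr161* (-1.12) and *Gpr116* (-1.002), with *Gpr97* (1.40) and *Gpr85* (1.35) higher. Leaving out NT replicate 3 gave 2 lower, *Gpr21* (-3.13) and *Gpr173* (-1.60), against 11.7% of all genes lower and 7.46% higher. Within the Ribo-Seq library of FL replicate 3, the median receptor lay at -0.55 from the median gene, against -1.12 and -1.22 in replicates 1 and 2. Replicate 3 was the highest of the FL Ribo-Seq libraries for 16 of the 25 receptors (64%) and for 43% of all genes. Set against mean FL mRNA, *Gpr153* had a log2 TE of -3.25, -2.97 and -1.15 in FL Ribo-Seq replicates 1, 2 and 3, and *Gpr135* one of -4.69, -4.37 and -1.63. *Gpr4* did not follow, with -2.11, -1.76 and -1.99.

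**Figure D5:**
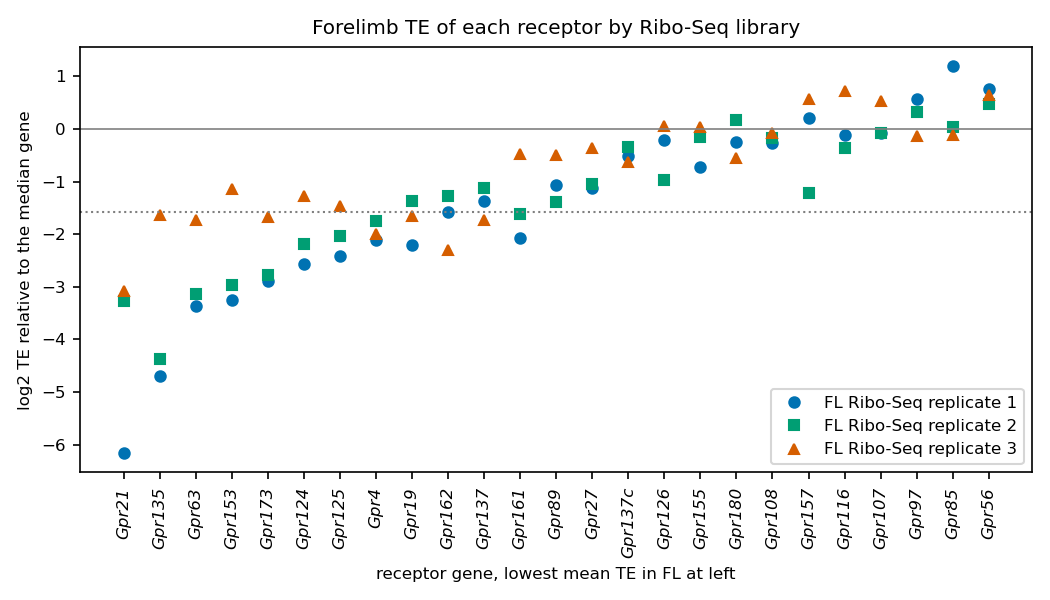
Log2 TE of the 25 receptors in FL, computed from each Ribo-Seq library against the mean of the 3 RNA-Seq libraries and centred on the median gene of that library, with the dotted line 3-fold below the median. Triangles (replicate 3) lie above the other symbols for *Gpr135*, *Gpr63*, *Gpr153*, *Gpr173* and *Gpr124*, and among or below them for *Gpr4*, *Gpr19* and *Gpr162*.

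The enzymes that receptors act on were described with the same calls. Of 35 genes downstream in the mesoderm, 9 were TE-low (25.7%, beside 10.9% of all genes) and 0 TE-high, by edgeR and DESeq2 too, with a median log2 TE of -1.08. Adenylyl cyclases, which make cAMP, gave 4 TE-low genes of 8, led by *Adcy1* (-3.33 ± 0.28) and *Adcy5* (-2.84 ± 0.24). Phospholipase C genes gave 5 of 10, led by *Plce1* (-2.44 ± 0.29) and *Plcb2* (-2.33 ± 0.28). No gene of the 8 protein kinase C isoforms or 6 protein kinase A subunits was called. These families were chosen by the study from the same samples.

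In FL, 11 of 32 downstream genes were TE-low (34.4%, beside 13.4% of all genes), 6 of them adenylyl cyclases and 4 phospholipase C genes, with a median log2 TE of -0.90. Without FL replicate 3 it was 16 of 32 (50%, beside 18.1%), with a median of -1.34. In NT, 1 of 32 was TE-low (beside 4.13% of all genes), *Prkcz*, at -1.63 ± 0.32, and without NT replicate 3 none was by limma, where 9 of 32 had an unadjusted p under 0.05. The adenylyl cyclases had a median TE of -2.41 in FL and -1.05 in NT, beside -1.94 and -1.27 for the 11 rhodopsin-like receptors measured there. No downstream gene passed for the TE difference between tissues, with 6 of 32 at an unadjusted limma p under 0.05 and 0 called by edgeR or DESeq2. Without FL replicate 3, 13 of the 32 were lower in TE in FL (40.6%, beside 19.7% of all genes), and without NT replicate 3, 6 were (18.8%, beside 11.7%). RPFs of 12 of the 32 were lower in FL (37.5%, beside 17.8% of all genes) and 0 higher, where edgeR and DESeq2 each gave 11 and 1, led by *Plch1* (-5.36 ± 0.62), whose mRNA was also lower in FL (-3.94 ± 0.62), whereas *Adcy4* mRNA was higher in FL (2.23 ± 0.41).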

How the data were processed

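The authors trimmed reads with cutadapt, mapped them with Bowtie2 and, over the canonical UCSC transcript of each gene (mm10), counted RNA-Seq and Ribo-Seq reads in the coding sequence without its first 15 and last 5 codons. They divided counts by DESeq size factors, separately for the mesoderm table and the NT and FL table, and deposited these normalized reads, a signal per gene that is not a raw count. Values of a library were whole multiples of 1 step within 0.1 read for 100% of genes, so reads were recovered. Symbols came from the study's supplementary lists by UCSC identifier. limma 3.58.1 (R 4.3.3) was run on log2(normalized reads + 1) with a mean-variance trend and Benjamini-Hochberg adjustment over all genes, centred on the median gene for TE. The mesoderm model had the replicate as a block (deviations from group means correlated at 0.57 to 0.74 between library types of a replicate), and the 12 NT and FL libraries shared 1 model without it. All 31 receptors are named with values. Of the downstream genes, only those called in at least 1 comparison could be named, and of these and of the markers a few examples are. TE-low or TE-high means adjusted p under 0.05 and 3-fold, a tissue difference in mRNA or RPFs adjusted p under 0.05 and 2-fold, and in TE adjusted p under 0.2 and 2-fold. Alternatives were edgeR 4.0.16 and DESeq2 1.42.0 on recovered reads, other pseudocounts (0.1 and 8), a filter at a mean of 50 normalized reads, other thresholds, no centring, the block, and leaving out each replicate. The models were also run on simulated reads with the same dispersion for every gene and no outlying replicate. That run does not bear on the effect of single replicates described here. The members, lists and markers were chosen with earlier results of these data known. Annotation was GENCODE M21 on GRCm38, which matched all 31 receptors. Protein sequences were not used here. The values of 1 downstream gene family, counted in the totals, are not reported here.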

Additional observations from a re-analysis of the deposited data

How the results depend on the processing

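Replicates of 3 and sparse RPFs limit these results: *Gpr21* and *Gpr135* had under 6 RPF reads in each mesoderm library. The mesoderm TE-low count stayed between 9 and 14 under every alternative run, and the FL TE-low count between 8 and 12. The mesoderm TE-high count of 1 became 0 with a pseudocount of 8 and 2 at 2-fold, and lay between 0 and 1 when a replicate was left out (0 without replicate 2 or replicate 3). The NT TE-low count of 5 was 3 with edgeR and 10 at 2-fold, and lay between 2 and 5 when a replicate was left out. The receptors with a TE difference between FL and NT, 0 in the model reported, numbered 2 lower in FL with DESeq2, and when a replicate was left out between 0 and 7 were lower and between 0 and 2 higher, the most without FL replicate 3. Counts for mRNA stayed between 4 and 6 lower and 2 and 3 higher in FL, and for RPFs between 8 and 10 lower and 2 and 4 higher. No called receptor changed sign under any alternative. Among 2033 values for single receptors under an alternative, 1952 kept their side of the threshold, 39 lost a call and 42 gained one. Deviations of the same replicate number correlated at -0.28, 0.35 and 0.05 between NT Ribo-Seq and RNA-Seq. The FL values were 0.05, 0.12 and 0.09. Such low values do not show whether the replicate numbers pair these libraries. With the replicate block, the NT TE-low count was 4 (*Gpr63* at -1.81, adjusted p = 0.0631) and the FL count 10. Without the block, the mesoderm TE-low count was 11. The causes of these changes were not tested.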
